A study of Homo sapiens with 8 samples.

Results

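Amino acid transporter genes were described in human leukaemia cells treated with cinobufagin: SLC3A2, SLC7A5, SLC7A6, SLC7A11, SLC7A1, SLC1A4, SLC1A5, SLC38A1, SLC38A2 and SLC43A1. They were chosen by symbol, with earlier results of these data known. Of the 25593 gene rows of the expression table, 10 carry these symbols. The study measured RNA in 2 acute myeloid leukaemia cell lines, Kasumi-1 and HL60, each kept in culture with 100 nM cinobufagin for 24 h or without it, with 2 libraries in each of 4 groups. Cinobufagin is a bufadienolide from toad venom, a class of compounds that block the sodium pump (Na+/K+-ATPase). Kasumi-1 carries the RUNX1-RUNX1T1 fusion, and HL60 is a promyelocytic line with extra copies of MYC. Both lines grew in RPMI-1640 with penicillin-streptomycin and fetal bovine serum, and the serum share was higher for Kasumi-1, so serum and line cannot be told apart. Values are FPKM, fragments per transcript length and per mapped fragments of the library, and each mean carries the SD over 2 libraries. Nothing in the labels names separate cultures, so the spread between libraries, and every p-value, may be technical only.

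Cells take up amino acids through carriers that differ in what they move and in what drives them. SLC3A2, also called CD98 or 4F2hc, is a heavy chain that carries no amino acid itself and brings several SLC7 light chains to the cell surface as disulphide-linked pairs. SLC7A5 (LAT1) exchanges large neutral amino acids such as leucine, SLC7A6 (y+LAT2) exchanges cationic against neutral amino acids, and SLC7A11 (xCT) takes up cystine against glutamate. SLC7A1 (CAT1) works without a heavy chain and carries arginine and lysine. SLC1A4 (ASCT1) and SLC1A5 (ASCT2) are sodium-dependent exchangers of small neutral amino acids, and SLC1A5 also carries glutamine. SLC38A1 (SNAT1) and SLC38A2 (SNAT2) take up glutamine, alanine and other neutral amino acids together with sodium, and SLC43A1 (LAT3) lets leucine and related amino acids pass without sodium. In many cells the genes of this uptake system answer to ATF4, a transcription factor of amino acid shortage, and to MYC.

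Since ATF4 and MYC bind known short sequences, the promoters of the transporter genes were searched for 2 of them. RefSeq promoter windows of 250 bases before to 50 after a start (build GRCh38.p14, which differs from the hg19 build of the expression table) were found for 9 of the 10 genes, 16 windows in all. SLC7A11 had no window. CACGTG, the E-box letters that MYC and other factors bind, reads the same on both strands and stood in windows of 3 genes, SLC7A5, SLC1A5 and SLC43A1. It stood in 7.26% of all 35116 windows of that length and in 8.77% of their 27305 genes. TGATGNAA, written after the amino acid response elements that ATF4 binds and searched on both strands, stood in windows of 5 genes, SLC3A2, SLC7A1, SLC1A4, SLC1A5 and SLC38A1. It stood in 3.62% of all windows and in 4.46% of all genes, and no window of these genes held both. A match describes the letters only. One window of each of 5 genes is shown, 5′ to 3′ along the gene's strand as examples of each sequence. The end of the window, after the start, was in no GENCODE transcript of the gene for SLC7A5 and SLC38A1. For the other shown windows it was. SLC1A4, SLC43A1 and SLC38A1 each have another window, and it held neither sequence. The shown windows are not all that matched. SLC1A5, which rose in HL60, held each sequence in a different window, and its remaining window held neither. SLC3A2 held TGATGNAA in a single window, and its others held neither sequence. SLC38A2, which had the largest rise, held neither. These 9 genes have more windows per gene than all genes do, which gives more places for a match. Capitals mark CACGTG in SLC7A5 and SLC43A1, and TGATGNAA or its reverse complement in the others. The stretches lie at chr16:87869478-87869677 on the minus strand (SLC7A5), chr11:57515788-57515952 on the minus strand (SLC43A1), chr13:29595659-29595858 on the minus strand (SLC7A1), chr2:64989229-64989428 on the plus strand (SLC1A4) and chr12:46266487-46266686 on the minus strand (SLC38A1). Those of SLC7A5, SLC7A1, SLC1A4 and SLC38A1 run from 170 bases before to 30 after the start, and that of SLC43A1 is 165 bases long and ends before the starts of its other transcripts.
SLC7A5: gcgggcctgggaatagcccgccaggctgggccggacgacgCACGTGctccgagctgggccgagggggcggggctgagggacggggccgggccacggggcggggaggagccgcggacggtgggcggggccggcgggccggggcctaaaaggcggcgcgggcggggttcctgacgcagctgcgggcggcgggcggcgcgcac
SLC43A1: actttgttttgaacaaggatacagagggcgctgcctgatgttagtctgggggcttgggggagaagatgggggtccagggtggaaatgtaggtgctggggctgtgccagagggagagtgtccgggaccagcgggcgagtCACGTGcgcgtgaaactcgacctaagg
SLC7A1: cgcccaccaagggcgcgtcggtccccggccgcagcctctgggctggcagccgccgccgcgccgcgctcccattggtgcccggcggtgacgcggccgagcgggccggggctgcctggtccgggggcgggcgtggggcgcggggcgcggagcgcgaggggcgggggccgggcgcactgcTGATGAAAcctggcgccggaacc
SLC1A4: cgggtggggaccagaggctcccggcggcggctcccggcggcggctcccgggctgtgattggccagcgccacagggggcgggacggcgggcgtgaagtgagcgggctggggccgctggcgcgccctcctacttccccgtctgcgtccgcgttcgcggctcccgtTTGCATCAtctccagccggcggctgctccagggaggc
SLC38A1: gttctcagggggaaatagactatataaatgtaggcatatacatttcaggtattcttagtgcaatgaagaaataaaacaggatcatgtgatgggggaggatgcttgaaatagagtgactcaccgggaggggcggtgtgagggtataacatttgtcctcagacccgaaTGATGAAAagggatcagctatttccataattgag

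In HL60 treated with cinobufagin, RNA of 8 of the 10 transporters rose, SLC43A1 fell and SLC7A5 did not pass the test. In Kasumi-1, SLC38A2 rose, SLC7A5 fell and the other 8 did not pass the test, and all 10 changes differed between the lines. In another fit, with the replicate number as a block, 8 of the 10 passed the test in Kasumi-1, 4 in each direction. A gene is said to have risen or fallen where limma's Benjamini-Hochberg adjusted p over 12511 tested genes was under 0.05. Log2 changes and their SE are on the log2(FPKM + 1) scale, which understates the change of low genes. FPKM is a share of a library's RNA, so a change in RNA per cell, or in the number of cells that carry a transcript, cannot be told apart from it.

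**Figure D1:**
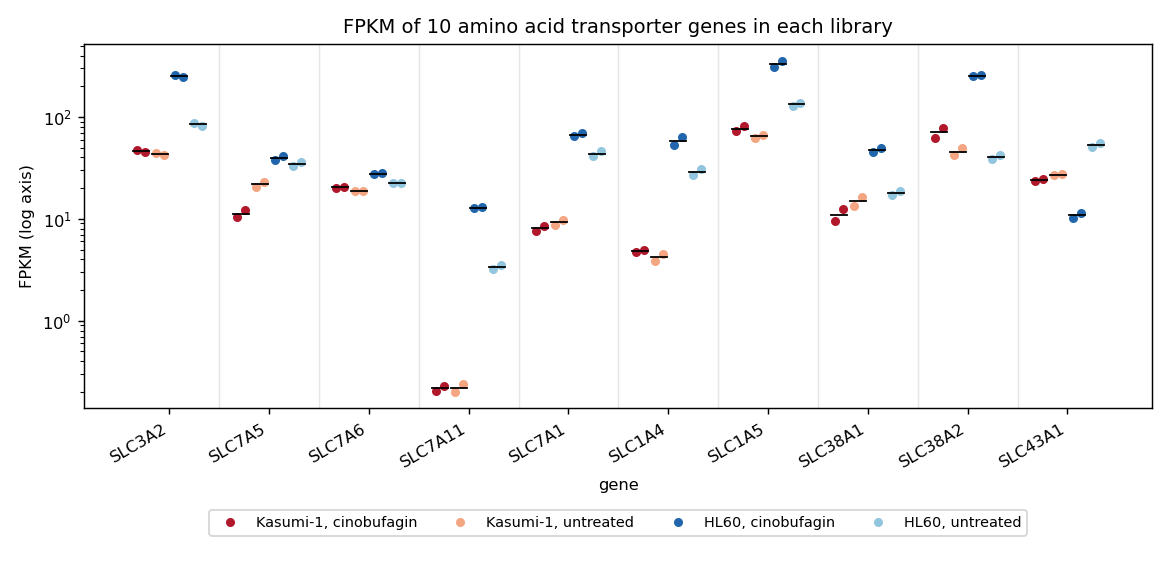
FPKM (log axis) of the 10 transporter genes in each of the 8 libraries, with points for libraries and black lines for group means. The treated HL60 libraries stand above all others for each gene except SLC43A1, which they have at 10.3 and 11.3 FPKM, the lowest of the 4 groups.

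The heavy chain SLC3A2 rose in HL60 and did not pass the test in Kasumi-1. In Kasumi-1 it had 47.0 and 45.5 FPKM with cinobufagin and 44.05 and 42.2 FPKM without. In HL60 it had 260.0 and 245.6 FPKM with cinobufagin and 86.7 and 82.3 FPKM without. The treated libraries lay above the untreated ones in both lines, by a narrow margin in Kasumi-1. The log2 change was 0.10 ± 0.05 in Kasumi-1 (SE, limma adjusted p = 0.221) and 1.57 ± 0.05 in HL60 (limma adjusted p = 1.19e-06), a ratio of mean FPKM of 2.99 in HL60. The 95% interval of the Kasumi-1 change ran from −0.03 to 0.23.

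The light chain SLC7A5, the leucine exchanger, fell in Kasumi-1. It had 10.4 and 12.1 FPKM in treated Kasumi-1 against 20.4 and 23.2 FPKM in untreated Kasumi-1. The treated mean was 51.6% of the untreated mean, and the log2 change was −0.90 ± 0.10 (SE, limma adjusted p = 0.00278). In HL60 it had 38.2 and 41.55 FPKM with cinobufagin and 33.0 and 36.3 FPKM without. Those groups did not overlap, but the log2 change of 0.20 ± 0.10 did not pass the test (limma adjusted p = 0.115), and its 95% interval ran from −0.04 to 0.44. Rescaling the libraries by median ratios gave HL60 a change of 0.25 and a call (limma adjusted p = 0.0482). Quantile normalization gave HL60 a change of 0.10 and no call (limma adjusted p = 0.376). SLC7A5 has pseudogene copies that could share reads with it, of which SLC7A5P1 had at most 7.74 FPKM and SLC7A5P2 at most 1.28 FPKM in a library, and neither passed the test in a line.

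SLC7A6, the exchanger of cationic and neutral amino acids, was the steadiest light chain across groups. It had 20.2 and 20.6 FPKM in treated Kasumi-1 against 18.8 and 18.7 FPKM in untreated Kasumi-1, which is 0.12 ± 0.04 on the log2 scale (SE, limma adjusted p = 0.0973). It had 27.5 and 28.1 FPKM in treated HL60 against 22.2 and 22.3 FPKM in untreated HL60. There it rose by 0.31 ± 0.04 on the log2 scale (limma adjusted p = 0.000662). Treated libraries lay above untreated ones in both lines, and rescaling by median ratios gave the Kasumi-1 change a call as well (0.17, limma adjusted p = 0.0346). Quantile normalization gave it none (0.14, limma adjusted p = 0.0635). The opposite strand of the SLC7A6 locus holds SLC7A6OS, which had 15.05 and 16.2 FPKM in treated Kasumi-1 against 11.03 and 9.42 FPKM in Kasumi-1 without drug, and 23.1 and 22.7 FPKM in treated HL60 against 11.8 and 9.32 FPKM in untreated HL60. SLC7A6OS rose in Kasumi-1 (log2 change 0.57, limma adjusted p = 0.0166) and in HL60 (1.06, limma adjusted p = 0.000197), and its part in the SLC7A6 values was not tested, because the strand setting of the authors' quantification is not given.

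SLC7A11, the cystine carrier, rose in HL60 and was barely detected in Kasumi-1. It had 0.203 and 0.231 FPKM in treated Kasumi-1 against 0.202 and 0.239 FPKM in untreated Kasumi-1, under the 1 FPKM of the expression filter in each library, and was tested only because of its HL60 values. In HL60 it had 12.65 and 13.0 FPKM with cinobufagin and 3.185 and 3.54 FPKM without. The Kasumi-1 groups overlapped and the HL60 groups lay far apart. In HL60 it rose by 1.66 ± 0.07 on the log2 scale (SE, limma adjusted p = 2.48e-06), and the ratio of mean FPKM was 3.81. In Kasumi-1 the change was −0.00 ± 0.07 (limma adjusted p = 0.98), and its sign turned with the scaling.

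Because FPKM is per length, levels of the heavy chain and its partners could be set beside each other. The sum of the 6 light chains that pair with SLC3A2 (SLC7A5, SLC7A6, SLC7A7, SLC7A8, SLC7A10 and SLC7A11) was 0.665 and 0.73 of the SLC3A2 level in treated Kasumi-1 against 0.901 and 1.0 in untreated Kasumi-1. In HL60 it was 0.305 and 0.341 of the SLC3A2 level with cinobufagin against 0.702 and 0.785 without. The ratio was thus lower in the treated libraries of both lines. The light chain sum was 32.3 ± 1.4 FPKM in treated Kasumi-1 against 41 ± 1.9 FPKM in untreated Kasumi-1, where SLC7A5 had fallen. In HL60 it was 81.5 ± 3.1 FPKM with cinobufagin and 62.8 ± 2.6 FPKM without, a smaller difference than that of the heavy chain (SD, n = 2 each). These ratios describe RNA, and no test was made of them.

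The makeup of the light chains also differed. SLC7A5 gave 33.2% and 36.5% of the light chain sum in treated Kasumi-1 against 51.5% and 54.8% in untreated Kasumi-1, and SLC7A6 gave 64.6% and 62.1% against 47.5% and 44.2%. In HL60, SLC7A5 gave 48.2% and 49.7% with cinobufagin against 54.2% and 56.2% without. SLC7A11 gave 16.0% and 15.5% of the sum in treated HL60 against 5.23% and 5.48% in untreated HL60. SLC7A6 was thus the most abundant light chain in treated Kasumi-1, and SLC7A5 in the other 3 groups.

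**Figure D2:**
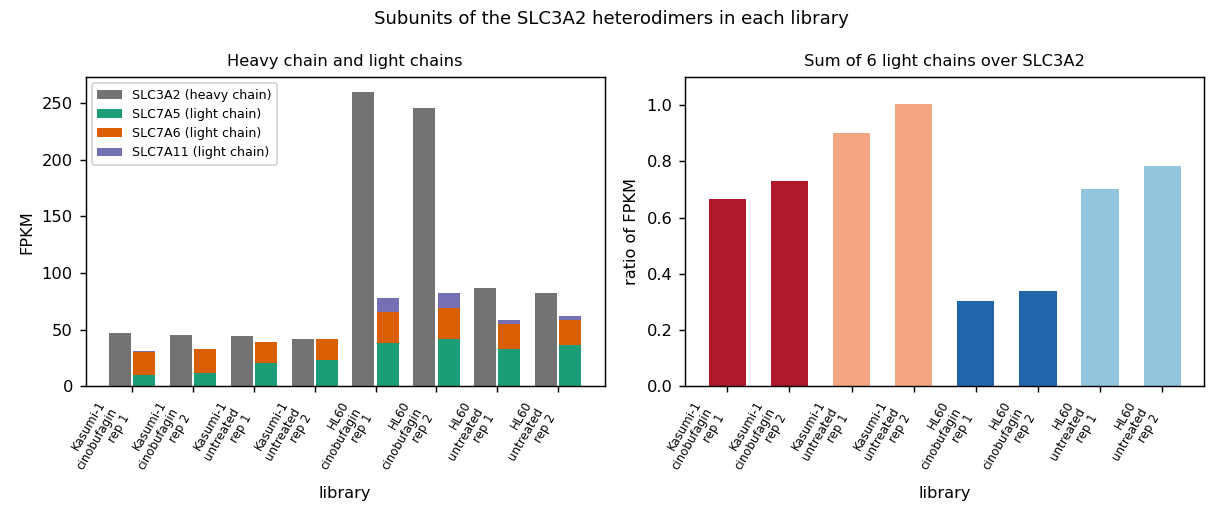
Left, FPKM of the heavy chain SLC3A2 (grey bars) and of the light chains SLC7A5, SLC7A6 and SLC7A11 (stacked bars) in each library. Right, the sum of 6 light chains divided by SLC3A2 in each library, which is lower in treated than in untreated libraries of the same line and lowest in treated HL60, at 0.305 and 0.341.

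SLC7A1, the carrier of arginine and lysine that needs no heavy chain, had 7.61 and 8.49 FPKM in treated Kasumi-1 against 8.77 and 9.84 FPKM in untreated Kasumi-1. It had 64.3 and 69.4 FPKM in treated HL60 against 41.0 and 46.0 FPKM in untreated HL60. The treated libraries were the lower ones in Kasumi-1 and the higher ones in HL60. The log2 change was −0.19 ± 0.09 in Kasumi-1 (SE, limma adjusted p = 0.176), and in HL60 the gene rose by 0.61 ± 0.09 (limma adjusted p = 0.000806). Its promoter is shown above with TGATGAAA from base 8 after the start. SLC38A2 and SLC7A6, which also rose in HL60, held no match to TGATGNAA in their windows.

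Both sodium-dependent exchangers of the SLC1 family rose in HL60. SLC1A4 had 4.72 and 4.97 FPKM in treated Kasumi-1 against 3.85 and 4.56 FPKM in Kasumi-1 without drug, and 53.5 and 63.0 FPKM in treated HL60 against 27.0 and 30.6 FPKM in untreated HL60. Its log2 change was 0.17 ± 0.11 in Kasumi-1 (SE, limma adjusted p = 0.296) and 0.99 ± 0.11 in HL60 (limma adjusted p = 0.000193), a ratio of means of 2.02 in HL60. SLC1A5, the glutamine exchanger, had the highest mean level of the 10 genes in each of the 4 groups. It had 72.9 and 80.6 FPKM in treated Kasumi-1 against 62.3 and 66.7 FPKM in Kasumi-1 without drug, and 309.1 and 357.5 FPKM in treated HL60 against 128.6 and 137.2 FPKM in untreated HL60. The treated libraries were the higher ones in both lines for both genes. The log2 change of SLC1A5 was 0.25 ± 0.09 in Kasumi-1 (limma adjusted p = 0.0871) and 1.32 ± 0.09 in HL60 (limma adjusted p = 1.87e-05). Rescaling by median ratios gave Kasumi-1 0.305 and a call (limma adjusted p = 0.0495), and quantile normalization gave 0.27 and no call (limma adjusted p = 0.0755). SLC1A5 stood at 15.8 times the level of SLC1A4 in treated Kasumi-1 against 15.4 times in untreated Kasumi-1, and at 5.72 times in treated HL60 against 4.62 times in untreated HL60.

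The sodium-coupled carrier SLC38A2 had the largest rise of the 10 genes in each line. It had 62.7 and 78.6 FPKM in treated Kasumi-1 against 41.9 and 49.4 FPKM in untreated Kasumi-1. In HL60 it had 249.8 and 256.3 FPKM with cinobufagin and 38.4 and 42.5 FPKM without. The groups did not overlap in either line. The ratio of means was 1.55 in Kasumi-1 and 6.26 in HL60, and the log2 changes were 0.615 ± 0.12 (SE, limma adjusted p = 0.0156) and 2.62 ± 0.12 (limma adjusted p = 4.05e-06). The Kasumi-1 call was lost without treated replicate 2 (0.455, limma adjusted p = 0.0525), without untreated replicate 1 (limma adjusted p = 0.0736) and where Kasumi-1 was fitted alone (limma adjusted p = 0.0845).

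Its relative SLC38A1 rose in HL60 and did not pass the test in Kasumi-1. It had 9.47 and 12.4 FPKM in treated Kasumi-1 against 13.4 and 16.3 FPKM in Kasumi-1 without drug, and 45.4 and 49.9 FPKM in treated HL60 against 17.2 and 18.9 FPKM in untreated HL60. Treated libraries were thus the lower ones in Kasumi-1 and the higher ones in HL60. The log2 change was −0.415 ± 0.14 in Kasumi-1 (SE, limma adjusted p = 0.0744, and 0.0402 without treated replicate 2) and 1.35 ± 0.14 in HL60 (limma adjusted p = 0.000144). SLC38A2 stood at 6.48 ± 0.2 times the level of SLC38A1 in treated Kasumi-1 against 3.08 ± 0.063 times in untreated Kasumi-1, and at 5.32 ± 0.26 times in treated HL60 against 2.24 ± 0.011 times in untreated HL60 (SD, n = 2 each). This ratio was thus higher in the treated libraries of both lines.

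SLC43A1, the sodium-independent leucine carrier, was the one transporter of the 10 that fell in HL60. Its promoter is shown above with CACGTG. That sequence also stood in windows of SLC7A5, which did not pass the test in HL60, and of SLC1A5, which rose there. It had 23.3 and 24.7 FPKM in treated Kasumi-1 against 26.9 and 27.5 FPKM in untreated Kasumi-1. In HL60 it had 10.3 and 11.3 FPKM with cinobufagin and 50.8 and 54.9 FPKM without. The treated libraries were the lower ones in both lines, with a wide gap in HL60. The treated mean was 20.4% of the untreated mean in HL60, and the log2 change was −2.19 ± 0.07 (SE, limma adjusted p = 8.25e-07). In Kasumi-1 the log2 change was −0.17 ± 0.07 (limma adjusted p = 0.104), with a 95% interval from −0.335 to −0.01.

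**Figure D3:**
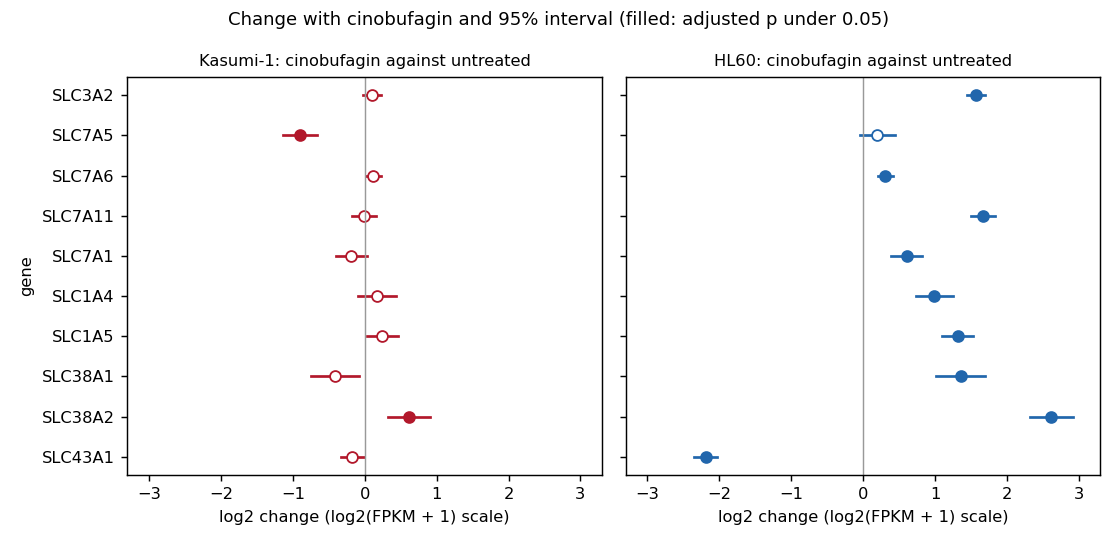
Log2 change with cinobufagin of each transporter gene in Kasumi-1 (left) and HL60 (right) on the log2(FPKM + 1) scale, with 95% intervals from limma and filled points for adjusted p under 0.05. In HL60 the changes run from −2.19 for SLC43A1 to 2.62 for SLC38A2, and in Kasumi-1 from −0.90 for SLC7A5 to 0.615 for SLC38A2.

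Calls were common among all genes, so the counts of transporters are read against that background. In Kasumi-1, 2 of the 10 were called, 1 in each direction, where 26.3% of all tested genes were called, 10.1% higher and 16.2% lower. The share of the 10 is near the background in this fit. With the replicate number as a block, 8 of the 10 were called in Kasumi-1, 4 in each direction, and 4749 of the 12511 tested genes. Nothing in the labels ties these numbers to a batch, so the block was not the main design. The split of calls in Kasumi-1 moved with the scaling. Of all genes, 1266 were called higher and 2026 lower with the values as deposited, 1669 higher and 1561 lower after rescaling by median ratios, and 1675 higher and 1793 lower after quantile normalization. Of the 10 transporters, 3 were called higher and 1 lower under median ratios. In HL60, 9 of 10 were called, where 73.6% of all tested genes were called, so the number of calls alone says little. Of the 10, 8 rose, where 36% of all tested genes did. The 10 were chosen with earlier results of these data known, so this difference from the background may come from the choice. SLC43A1 was the 1 that fell, and 37.6% of all tested genes did. The median log2 change of the 10 was 0.05 in Kasumi-1 and 1.154 in HL60, beside −0.04 and −0.01 over all tested genes. Without SLC7A11, which passed the expression filter through HL60, 2 of 9 were called in Kasumi-1 and 8 of 9 in HL60. Treated and untreated libraries did not overlap for 9 of the 10 genes in Kasumi-1, where this held for 61.5% of all tested genes, and for all 10 in HL60, where it held for 86.9%.

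All 10 changes differed between Kasumi-1 and HL60 by the interaction term of the same limma fit, where 63.1% of all tested genes did. SLC7A11 passed the expression filter through HL60 and stood under 1 FPKM in each Kasumi-1 library. Its difference thus rests on HL60 and is no support. Leaving it out, all 9 others were called. For 9 of the 10 genes, SLC7A11 among them, the Kasumi-1 change was the lower one, where this held for 33.1% of all tested genes. For SLC43A1 it was the higher one, as for 30.1% of all tested genes. The difference, Kasumi-1 minus HL60, was −2.003 ± 0.175 for SLC38A2 (SE, limma adjusted p = 0.000136) and 2.017 ± 0.095 for SLC43A1 (limma adjusted p = 1.24e-05). For SLC3A2 it was −1.47 ± 0.075 (limma adjusted p = 1.79e-05). It was smallest for SLC7A6, at −0.19 ± 0.06 (limma adjusted p = 0.0319), where the call was lost without any 1 of the 8 libraries (limma adjusted p from 0.0504 to 0.0876) and under quantile normalization (−0.07, limma adjusted p = 0.367).

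Without drug, most of these transporters were lower in Kasumi-1 than in HL60. Of the 10, 8 were called lower in untreated Kasumi-1, where 33.8% of all tested genes were (69.7% of all tested genes were called in either direction). SLC7A11 had to differ, since it passed the expression filter through HL60, and 7 of the other 9 were called. The log2 difference was −2.52 for SLC1A4 (limma adjusted p = 2.48e-06) and −2.11 for SLC7A1 (limma adjusted p = 2.26e-06). SLC38A1 (−0.27, limma adjusted p = 0.133) and SLC38A2 (0.17, limma adjusted p = 0.263) did not pass the test, and the libraries of the lines did not overlap for SLC38A1. With cinobufagin in both lines, 9 of the 10 were lower in Kasumi-1, where 40.2% of all tested genes were, and SLC43A1 was higher (1.085), where 42% were (82.2% in either direction). Leaving out SLC7A11, all 9 others were called between the treated lines, and the log2 difference was −3.34 for SLC1A4, −2.91 for SLC7A1 and −2.42 for SLC3A2. These comparisons share libraries with the drug comparisons, and the lines also differ in serum.

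The order of levels differed between the groups below SLC1A5. In treated Kasumi-1, SLC38A2 (70.7 ± 11 FPKM) overlapped with SLC1A5 (76.75 ± 5.4 FPKM), and SLC7A5 overlapped with SLC38A1. In untreated Kasumi-1, SLC38A2 (45.7 ± 5.3 FPKM) overlapped with SLC3A2 (43.1 ± 1.3 FPKM). In treated HL60, SLC38A2 and SLC3A2 both stood at 253 FPKM and overlapped, and SLC43A1 was the lowest of the 10. In untreated HL60, SLC43A1 was in place 3 of the order, after SLC3A2, and SLC7A1 overlapped with SLC38A2. The libraries of all other neighbours in these orders did not overlap. SLC7A11 was lowest in the other 3 groups. The 10 genes together summed to 258.6 and 288.3 FPKM in treated Kasumi-1 against 240.7 and 258.6 FPKM in Kasumi-1 without drug, and to 1071 and 1136 FPKM in treated HL60 against 448 and 474.4 FPKM in untreated HL60. The sums of the Kasumi-1 groups met at 258.6 FPKM and those of HL60 lay far apart. The 4 sodium-dependent genes (SLC1A4, SLC1A5, SLC38A1 and SLC38A2) gave 59.6% ± 2.3 of this sum in treated Kasumi-1 against 51.7% ± 1.7 in untreated Kasumi-1, and 62.7% ± 1.8 in treated HL60 against 47.7% ± 0.82 in untreated HL60 (SD, n = 2 each).

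The genes most like a transporter over the 8 libraries were named for SLC7A5, SLC3A2 and SLC7A11, by Pearson's r of log2(FPKM + 1). The 8 libraries fall into 4 groups, so r mostly reads the 4 group means. For SLC7A5 these were QTRTD1 (r = 0.9928), a subunit of a tRNA-modifying enzyme, and API5 (r = 0.9919). For SLC3A2 they were the chemokine gene CCL2 (r = 0.9991) and the zinc transporter SLC39A7 (r = 0.9991). CCL2 had at most 0.131 FPKM in a Kasumi-1 library. In HL60 it had 846 and 730 FPKM with cinobufagin and 10.6 and 11.4 FPKM without. SLC39A7 had 162 and 159 FPKM in treated HL60 against 70.35 and 65.35 FPKM in untreated HL60. For SLC7A11 the most alike genes were TFIP11 (r = 0.9995) and AHNAK (r = 0.9992), and AHNAK had at most 0.323 FPKM in a Kasumi-1 library. A high r thus does not mean a like level.

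Both factors named above moved in HL60. ATF4 had 215 and 192 FPKM in treated Kasumi-1 against 264 and 229 FPKM in Kasumi-1 without drug, and 653 and 610.0 FPKM in treated HL60 against 447.5 and 409 FPKM in untreated HL60. Its log2 change was −0.27 in Kasumi-1 (limma adjusted p = 0.0836), and it rose by 0.56 in HL60 (limma adjusted p = 0.00175). MYC had 199 and 202 FPKM in treated Kasumi-1 against 308 and 310.1 FPKM in Kasumi-1 without drug, and 30.3 and 29.2 FPKM in treated HL60 against 786 and 749.5 FPKM in untreated HL60. The log2 change of MYC was −0.62 in Kasumi-1 (limma adjusted p = 0.00124) and −4.64 in HL60 (limma adjusted p = 7.85e-08), so it fell in both lines. Whether either factor has a part in the transporter values was not tested.

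Lists of related genes were counted in the same fit. Over all tested genes, 10.1% rose and 16.2% fell in Kasumi-1, and 36% rose and 37.6% fell in HL60, and the lists are read against these shares. Of 36 other amino acid transporters, 10 were tested, of which 3 rose and 2 fell in Kasumi-1 and 5 rose and 4 fell in HL60, with median log2 changes of −0.07 in Kasumi-1 and 0.23 in HL60. SLC7A7 is among the 4 that fell in HL60 and is counted in the medians. It passed the expression filter through untreated HL60 alone (1.51 and 1.60 FPKM). It thus had to differ in HL60, and its fall there is no support. SLC43A2 (LAT4), the closest relative of SLC43A1, went the other way from it in HL60, with 23.2 and 26.0 FPKM in treated HL60 against 1.76 and 1.98 FPKM in untreated HL60 (log2 change 3.16, limma adjusted p = 4.87e-07). SLC38A5, another sodium-coupled glutamine carrier, went the other way from SLC38A2, with 6.01 and 7.17 FPKM in treated HL60 against 53.4 and 55.2 FPKM in untreated HL60 (−2.87, limma adjusted p = 9.3e-07). It also fell in Kasumi-1, with 28.1 and 31.0 FPKM treated against 42.0 and 45.95 FPKM untreated (−0.56, limma adjusted p = 0.0083). The taurine carrier SLC6A6 rose in Kasumi-1 (0.77, limma adjusted p = 0.00116) and in HL60 (2.00, limma adjusted p = 5.44e-07), and SLC36A4 rose in both lines too (0.61 and 1.28). SLC38A10 rose in Kasumi-1 (0.34, limma adjusted p = 0.00974) and fell in HL60 (−0.95, limma adjusted p = 1.24e-05).

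Among 6 tested carriers of the lysosome, limma called 0 in Kasumi-1 (2 at an unadjusted p under 0.05), while 4 rose and 2 fell in HL60, with medians of −0.04 in Kasumi-1 and 0.44 in HL60. There SLC38A7, which lets glutamine and asparagine out of the lysosome, rose by 1.03 (limma adjusted p = 0.000125), SLC36A1 rose by 0.44 (limma adjusted p = 0.00137) and SLC15A4, a carrier of histidine and peptides, fell by 0.95 (limma adjusted p = 3.37e-05). A list of 41 genes held the kinase complex mTORC1, its regulators, among them those of amino acid sensing, and its targets. Of these, 2 were higher and 4 lower in Kasumi-1, and 17 higher and 14 lower in HL60, with medians of 0.00 in Kasumi-1 and 0.10 in HL60. Over all tested genes 26.3% were called in Kasumi-1 and 73.6% in HL60, so this list stood near the background in HL60 and under it in Kasumi-1. FLCN, which acts on the Rag GTPases of this pathway, rose in Kasumi-1 (0.51, limma adjusted p = 0.00557) and in HL60 (1.87, limma adjusted p = 2.14e-06), and LAMTOR3, a subunit of the Ragulator, rose in HL60 (1.66, limma adjusted p = 1.87e-06). The GATOR2 subunits WDR59 (−0.34 in Kasumi-1, −1.45 in HL60) and SEH1L (−0.46 and −1.21) fell in both lines, and the GATOR1 subunit NPRL3 fell in HL60 (−1.37, limma adjusted p = 1.2e-05).

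Of 31 tested genes of the integrated stress response, the pathway in which ATF4 acts, 5 rose and 13 fell in Kasumi-1 and 20 rose and 8 fell in HL60, with medians of −0.21 in Kasumi-1 and 0.47 in HL60. Of all tested genes, 10.1% rose and 16.2% fell in Kasumi-1, and 36% rose and 37.6% fell in HL60. PPP1R15A, a phosphatase subunit that acts on eIF2α, had 16.0 and 15.25 FPKM in treated Kasumi-1 against 7.96 and 7.37 FPKM in Kasumi-1 without drug, and 183 and 182 FPKM in treated HL60 against 11.5 and 10.8 FPKM in untreated HL60. It rose in both lines (0.94, limma adjusted p = 0.000809, and 3.92, limma adjusted p = 1.28e-07), as did its relative PPP1R15B (0.38 and 1.86). ATF3, another transcription factor of the response, rose in HL60 to 16.25 and 16.1 FPKM in treated libraries, against 3.02 and 2.47 FPKM in untreated ones (limma adjusted p = 1.96e-06). STC2 fell in Kasumi-1 (−0.55, limma adjusted p = 0.00298) and rose in HL60 (0.53, limma adjusted p = 0.000268), and the tRNA exporter XPOT fell in both (−0.36 and −1.41). EIF2AK4, the kinase GCN2 that senses uncharged tRNA, fell in HL60 (−0.99, limma adjusted p = 1.45e-05).

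The sodium pump itself keeps up the gradient that SLC1A4, SLC1A5, SLC38A1 and SLC38A2 use. Of its 8 genes, 3 were tested, and 1 rose in Kasumi-1 and 3 in HL60. Over all tested genes, 10.1% rose in Kasumi-1 and 36% in HL60. The medians were 0.21 in Kasumi-1 and 1.21 in HL60, both the values of ATP1B1. That gene passed the expression filter through treated HL60 alone (2.77 and 2.25 FPKM). It thus had to differ in HL60, and its rise there is no support. The beta subunit gene ATP1B3 had 121 and 112 FPKM in treated Kasumi-1 against 92.2 and 83.9 FPKM in untreated Kasumi-1 (log2 change 0.40, limma adjusted p = 0.00868), and 246 and 239 FPKM in treated HL60 against 91.2 and 85.75 FPKM in untreated HL60 (1.44, limma adjusted p = 3.71e-06).

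**Figure D4:**
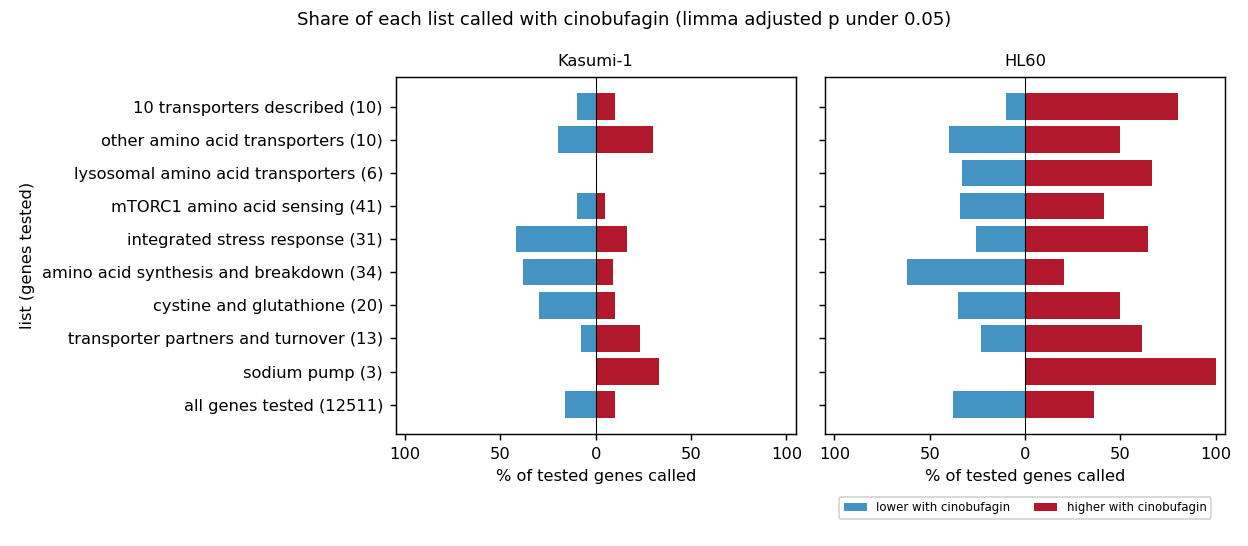
Share of tested genes called higher (red, right) or lower (blue, left) with cinobufagin in Kasumi-1 and HL60, in % of the tested genes of each list, with the number tested in brackets. Of the 10 transporters described, 8 rose in HL60, and over all 12511 tested genes 36% did. The 10 and the lists were chosen with earlier results of these data known.

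The libraries carried their lines' markers. RUNX1T1 and CD34 had 16.1 to 20.8 and 43.3 to 61.2 FPKM in the Kasumi-1 libraries, and were listed at 0 in the HL60 libraries. Myeloid markers moved with the drug beside the transporters. MPO, an enzyme of myeloid granules, had 7379 and 7381 FPKM in treated Kasumi-1 against 6013 and 6098 FPKM in Kasumi-1 without drug, and 245.1 and 274.4 FPKM in treated HL60 against 3285 and 3369 FPKM in untreated HL60. Of 7 line and myeloid markers, 3 rose and 2 fell in Kasumi-1, where 26.3% of all tested genes were called. In HL60, 1 rose and 4 fell, where 73.6% of all tested genes were called, and RUNX1T1 and CD34 could not be called there. In HL60 the log2 change was −3.68 for MPO (limma adjusted p = 2.99e-07), −2.92 for ELANE (limma adjusted p = 6.82e-07) and −1.33 for CD33 (limma adjusted p = 6e-06), and SPI1 rose by 0.735 (limma adjusted p = 2.52e-05). KIT, among the 4 that fell, was under 1 FPKM in each HL60 library and was tested only because of its Kasumi-1 values. What part these marker changes have in the transporter values was not tested. Of 15 markers of T cells, B cells, erythroid cells, fibroblasts and epithelium, the highest value was 1.15 FPKM (CD3E, in a treated HL60 library), and MS4A1, HBB, COL3A1, DCN and KRT19 were among those at 0 in each library. The snoRNA SNORD50A stood at 0 in each replicate 1 and at 45596 to 748781 FPKM in each replicate 2, and the relative depth of the libraries lay between 0.787 and 1.06. The change of each transporter had the same sign within replicates 1 and within replicates 2 for 9 genes in Kasumi-1 (not for SLC7A11) and for 10 in HL60, and differed between the replicate numbers by at most 0.135 on the log2 scale.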

How the data were processed

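The authors deposited a table of FPKM values, with 25593 gene rows and a column for each of the 8 libraries. All 8 columns were used, and 0 belonged to other samples. Per the labels' protocols, RNA came from an RNeasy kit, and the TruSeq Stranded mRNA kit, which selects poly(A) RNA, gave the libraries. Per the submitters' processing notes, bcl2fastq 2.20.0, HISAT2 2.1.0 and Cufflinks 2.2.1 were used with hg19. The sources used here do not give the annotation, the strand setting or read totals. Relative depth was read from 480 low genes. Without counts, no count model or counting interval was used, and a value listed at 0 was not read as absence.

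A gene was tested where 2 or more libraries reached 1 FPKM, which left 12511 genes and set 13082 aside. With limma 3.58.1 in R 4.3.3, log2(FPKM + 1) was fitted with 1 mean per group over the 8 libraries (4 residual degrees of freedom, variances with an intensity trend). Each of 5 contrasts was adjusted by Benjamini-Hochberg over all tested genes, and an adjusted p under 0.05 is a call. The code was tested on simulated data. A permutation of 2 against 2 libraries cannot go below a two-sided p of 0.33, so none was used.

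The 10 genes, the 8 lists of related genes and the marker genes were chosen with earlier results of these data known. All 10 transporters are named with every library's value. From each list and line, up to 2 called genes per direction are named, those with the largest change, a mean of 5 FPKM or more in either group and groups that do not overlap. MYC, ATF4 and the 2 genes most like SLC7A5, SLC3A2 and SLC7A11 are also named. A gene that this rule names is not reported here. SLC7A5P1, SLC7A5P2, SLC7A6OS, SNORD50A, ATP1B1 and the fall of SLC7A7 were named after their values were seen. Alternatives were another pseudocount (0.1), no filter, a filter at 5 FPKM, rescaling by median ratios, quantile normalization, the replicate number as a block, each library left out, each line fitted alone, no intensity trend, and SLC7A5 alone as the light chain.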

Additional observations from a re-analysis of the deposited data

Results flagged for a closer look

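Each of the 10 transporters drew attention because its change with cinobufagin differed between the lines by the interaction term of the limma fit, as did 63.1% of all tested genes. The differences of log2 changes, Kasumi-1 minus HL60, were −2.003 for SLC38A2, −1.770 for SLC38A1, −1.668 for SLC7A11, −1.470 for SLC3A2, −1.095 for SLC7A5, −1.070 for SLC1A5, −0.819 for SLC1A4, −0.796 for SLC7A1 and −0.192 for SLC7A6. For SLC43A1 the difference was 2.017. The value of SLC7A11 rests on HL60, since its Kasumi-1 libraries stood under 1 FPKM. SLC7A5 and SLC38A1 had treated libraries below the untreated ones in Kasumi-1 and above them in HL60, and so did SLC7A1. SLC43A1 had treated libraries below the untreated ones in both lines.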

How the results depend on the processing

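Of 770 values of single transporters under other settings, 742 kept their direction and side of the threshold, 12 lost a call, 12 gained one and 4 turned sign. Those that turned were the SLC7A11 change in Kasumi-1, at 0.006 under median ratios, 0.013 under quantile normalization, and from −0.027 to 0.018 with a library left out, above 0 without treated replicate 1 or untreated replicate 2 of Kasumi-1. Of the 10 genes, 4 were called in Kasumi-1 under median ratios and 1 with Kasumi-1 fitted alone. Leaving out 1 library gave 1 to 2 calls. Among all genes it gave 1654 to 2055 calls in Kasumi-1 without any 1 Kasumi-1 library and 2690.0 to 2738 without an HL60 library, against 3292 with every library and 1040.0 with Kasumi-1 fitted alone. With the replicate number as a block, 8 of the 10 genes were called in Kasumi-1, 4 in each direction, and 4749 of all 12511 tested genes. Deviations of same-numbered libraries correlated by 0.125 to 0.331 over all tested genes and by 0.435 to 0.579 without short RNAs, a hint that the numbers pair the libraries, but nothing in the labels ties the numbers to a batch and each comparison has 2 of them, so the block was not the main design. It also gave SLC7A5 a call in HL60 (adjusted p = 0.00398) and SLC38A1 one between the untreated lines (0.012). With SLC7A5 as the one light chain, its level over that of SLC3A2 was 0.244 in treated against 0.507 in untreated Kasumi-1, and 0.158 in treated against 0.411 in untreated HL60. The deposited values hold no read counts, so no counting error could be given.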

Other observations

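Of 34 tested genes that make or break down amino acids, 3 rose and 13 fell in Kasumi-1 and 7 rose and 21 fell in HL60, with medians of −0.195 in Kasumi-1 and −0.62 in HL60, beside −0.04 and −0.01 over all tested genes. Of all tested genes, 10.1% rose and 16.2% fell in Kasumi-1, a split that turned with the scaling, and 36% rose and 37.6% fell in HL60. The difference between this list and the rest was not tested. BCAT2, the mitochondrial transaminase of branched-chain amino acids, had 1.42 and 1.62 FPKM in treated HL60 against 23.0 and 22.1 FPKM in untreated HL60 (log2 change −3.22, limma adjusted p = 2.66e-07). BCKDHB, a subunit of the dehydrogenase that follows it, had 2.52 and 2.09 FPKM in treated HL60 against 18.3 and 18.7 FPKM in untreated HL60 (−2.56, limma adjusted p = 9.68e-07), while its other subunits BCKDHA (−0.13, limma adjusted p = 0.275) and DBT (−0.23, limma adjusted p = 0.0946) did not pass the test in HL60. BCKDHA rose in Kasumi-1 (0.49, limma adjusted p = 0.0159). DBT was named after its values were seen. ARG1, which splits the arginine that SLC7A1 carries, had 49.95 and 45.03 FPKM in treated HL60 against 4.27 and 3.98 FPKM in untreated HL60 (3.24, limma adjusted p = 4.02e-07). PSPH, of serine synthesis, rose in HL60 (0.995, limma adjusted p = 9.64e-06), PYCRL, of proline synthesis, fell in both lines (−0.77 and −2.105), and ALDH4A1, of proline breakdown, rose in Kasumi-1 (0.43, limma adjusted p = 0.0131).

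Of 20 tested genes of cystine and glutathione, 2 rose and 6 fell in Kasumi-1 and 10 rose and 7 fell in HL60, with medians of −0.17 in Kasumi-1 and 0.34 in HL60. Over all tested genes 26.3% were called in Kasumi-1, 10.1% higher and 16.2% lower, and 73.6% in HL60, 36% higher and 37.6% lower. CBS, which is also on the lists of the stress response and of amino acid synthesis, fell in Kasumi-1 (−0.82, limma adjusted p = 0.00132), as did the glutathione reductase gene GSR (−0.68, limma adjusted p = 0.0072). In HL60, HMOX1, a haem oxygenase, had 22.4 and 20.15 FPKM with cinobufagin against 0.242 and 0.235 FPKM without, and PTGS2 had 10.4 and 11.4 FPKM against 0.143 and 0.316 FPKM. Both passed the expression filter through treated HL60 alone and so had to differ, and their calls are no support. Both are counted among the 10 that rose in HL60 and in the medians. HMOX1 is also 1 of the 2 that rose in Kasumi-1. It had 0.359 and 0.269 FPKM in treated Kasumi-1 against 0.0835 and 0.076 FPKM in untreated Kasumi-1, under the 1 FPKM of the filter. The glutathione synthetase gene GSS (−1.77, limma adjusted p = 3.35e-06) and GGT1 (−1.05, limma adjusted p = 7.84e-05) fell there.

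Of 13 partners of the transporters and genes of their turnover, 3 rose and 1 fell in Kasumi-1 and 8 rose and 3 fell in HL60, with medians of 0.07 in Kasumi-1 and 0.46 in HL60, beside 26.3% of all tested genes called in Kasumi-1 and 73.6% in HL60. TXNIP, an arrestin-like protein that acts on glucose carriers, rose in Kasumi-1 (0.835, limma adjusted p = 0.000631) and in HL60 (1.97, limma adjusted p = 2.41e-07). BSG, a membrane partner of lactate carriers, rose in Kasumi-1 (0.52, limma adjusted p = 0.00337) and fell in HL60 (−0.20, limma adjusted p = 0.0259). SGK1, a kinase that acts on several carriers, had 62.4 and 61.8 FPKM in treated HL60 against 2.18 and 2.59 FPKM in untreated HL60 (4.22, limma adjusted p = 1.8e-07).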
